A study of Rattus norvegicus with 10 samples.

Results

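The Wnt genes described here are the secreted Wnt ligands, their Frizzled (Fzd) and Lrp receptors, the secreted antagonists of the pathway and its core intracellular members. They were chosen by gene symbol: every probe set whose only symbol in the platform annotation began with Wnt, Fzd, Sfrp or Dkk and a digit, or was Frzb, Wif1, Lrp5, Lrp6, Axin1, Axin2, Ctnnb1, Tcf7, Tcf7l1, Tcf7l2 or Lef1. This gave 61 of the 31042 probe sets and 37 of the 14217 named genes: 13 ligands, 9 receptors, 8 antagonists and 7 intracellular or nuclear members. Each gene was given the mean of its probe sets. The rule itself reads names and no measured value, although the set was proposed with earlier results of these data known.

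The hearts came from male rats of the inbred Fischer-344 strain, kept on standard chow. The Young group was 6 months old and the Old group 24 months old, with 5 Affymetrix rat genome arrays each, and no rat had a transgene or a drug treatment by the labels. The series was set up to profile genes of mitochondrial metabolism in the aging heart, a question that the Wnt genes were not part of. The sample protocols name the whole heart and the series text the ventricles, and no label states whether the arrays hold different rats. The p-values therefore cover the spread among these arrays, which may be technical.

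In the canonical branch of Wnt signalling, a secreted ligand binds a Frizzled receptor together with Lrp5 or Lrp6, which stops a complex of Axin, Apc, casein kinase and Gsk3 from marking beta-catenin (Ctnnb1) for breakdown. Beta-catenin then enters the nucleus and acts with the TCF/LEF factors (Tcf7, Tcf7l1, Tcf7l2, Lef1) on genes such as Axin2, itself a brake on the pathway. Sfrp proteins, Frzb and Wif1 bind Wnt ligands outside the cell, and some Dkk proteins act on Lrp5 and Lrp6. In the adult heart the pathway is known to be of low activity and to take part in scar formation after injury, where fibroblasts make several of the antagonists.

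Because beta-catenin acts through TCF/LEF factors, the start region of the only gene of the set with a change that stood without any single array, Sfrp2, is shown with that of Axin2, the textbook target of the pathway. Both are RefSeq sequences of assembly GRCr8, 250 bases before to 50 after the start, on the plus strand: chr2:171387286-171387585 for Sfrp2 and chr10:94398535-94398834 for Axin2. Capitals mark the letters CTTTG followed by A or T and once more by A or T, the core that TCF/LEF factors bind, searched on both strands.
Sfrp2: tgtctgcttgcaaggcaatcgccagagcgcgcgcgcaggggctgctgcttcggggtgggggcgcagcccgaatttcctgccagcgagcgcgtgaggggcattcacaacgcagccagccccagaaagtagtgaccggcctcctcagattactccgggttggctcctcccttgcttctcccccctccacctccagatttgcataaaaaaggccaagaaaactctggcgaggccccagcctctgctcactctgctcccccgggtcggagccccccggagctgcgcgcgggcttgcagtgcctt
Axin2: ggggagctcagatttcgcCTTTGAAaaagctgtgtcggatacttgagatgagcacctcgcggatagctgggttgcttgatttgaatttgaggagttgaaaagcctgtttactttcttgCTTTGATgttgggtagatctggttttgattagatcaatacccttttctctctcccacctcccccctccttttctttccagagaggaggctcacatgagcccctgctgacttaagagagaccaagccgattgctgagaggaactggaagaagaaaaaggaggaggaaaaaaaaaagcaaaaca
The Axin2 window held the core at 2 places, beginning 232 and 132 bases before the start, and the Sfrp2 window held none. Of the 37 genes, 26 had an entry in the promoter table, and 3 of these windows (11.5%) held the core: Axin2, Sfrp5, where it began 112 bases before the start, and Tcf7, where it began 4 bases before it. Of all 33469 windows of 300 bases, 17.1% held it. The median GC content was 65.3% in the members' windows and 51.7% in all.

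All values below are the authors' deposited log values, used as log2. The base of the logarithm was inferred from their numerical step, so the fold changes rest on it. Each probe set was centred on its median over the 10 arrays, so a value of 0 is the middle of the series and no absolute level can be read. From the size of the numerical step, probe sets were placed in 3 approximate brightness classes. Of the 61 Wnt probe sets, 11 (18.0%) were in the dimmest, 46 in the middle and 4 (6.56%) in the brightest, against 15.9%, 72.7% and 11.4% of all probe sets. All probe sets of Wif1, Wnt4, Wnt5a, Wnt8b, Wnt16, Fzd3 and Dkk2 were in the dimmest class, and whether these were above background was not analysed here. The brightest class held probe sets of Ctnnb1, Dkk3 and Tcf7l2. As a check of the tissue, each of the 9 measured cardiomyocyte markers was among the brightest. Marker levels also set arrays apart. Adipocyte markers averaged 1.00 in Young replicate 2, against -0.19 to -0.07 in the other Young arrays, and T and NK lymphocyte markers averaged 0.89 in Old replicate 3 and 0.59 in Old replicate 6, against 0.05 to 0.23 in the other Old arrays. Blood markers averaged 1.21 in Old replicate 6, against -0.49 to 0.22 in the other Old arrays. Epicardium and mesothelium markers averaged 0.28 and 0.22 in Young replicates 1 and 2, against -0.08 to -0.02 in the other Young arrays.

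Most Wnt genes showed no age difference that passed the test, and the clearest exception was the antagonist Sfrp2. Old and Young were compared with limma over all 14217 genes with Benjamini-Hochberg adjustment. A gene is called risen or fallen where its adjusted p was under 0.05. By this threshold 2 of the 37 genes rose, Sfrp2 and Wif1, and 0 fell. The share of 5.41% stands against 11.9% of all genes called, 6.77% upward and 5.09% downward, so the set held no excess of calls. At an unadjusted p under 0.05 there were 6 of 37, with 4 higher and 2 lower in Old hearts, against 26.3% of all genes. The ages did not overlap in 3 members, Sfrp2 and Tcf7l2 with Old higher and Wnt6 with Old lower, against 9.91% of all genes (5.13% with Old higher, 4.78% with Old lower). The median difference, Old minus Young, was -0.03 over the members and -0.01 over all genes, and the median absolute difference was 0.08 in both. All 35 genes that were not called differed by less than 0.2. Their 95% confidence intervals reached from -0.36, for Lrp6, to 0.43, for Fzd2, so a rise of Fzd2 of up to 1.35-fold lies within what these arrays allow.

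**Figure D1:**
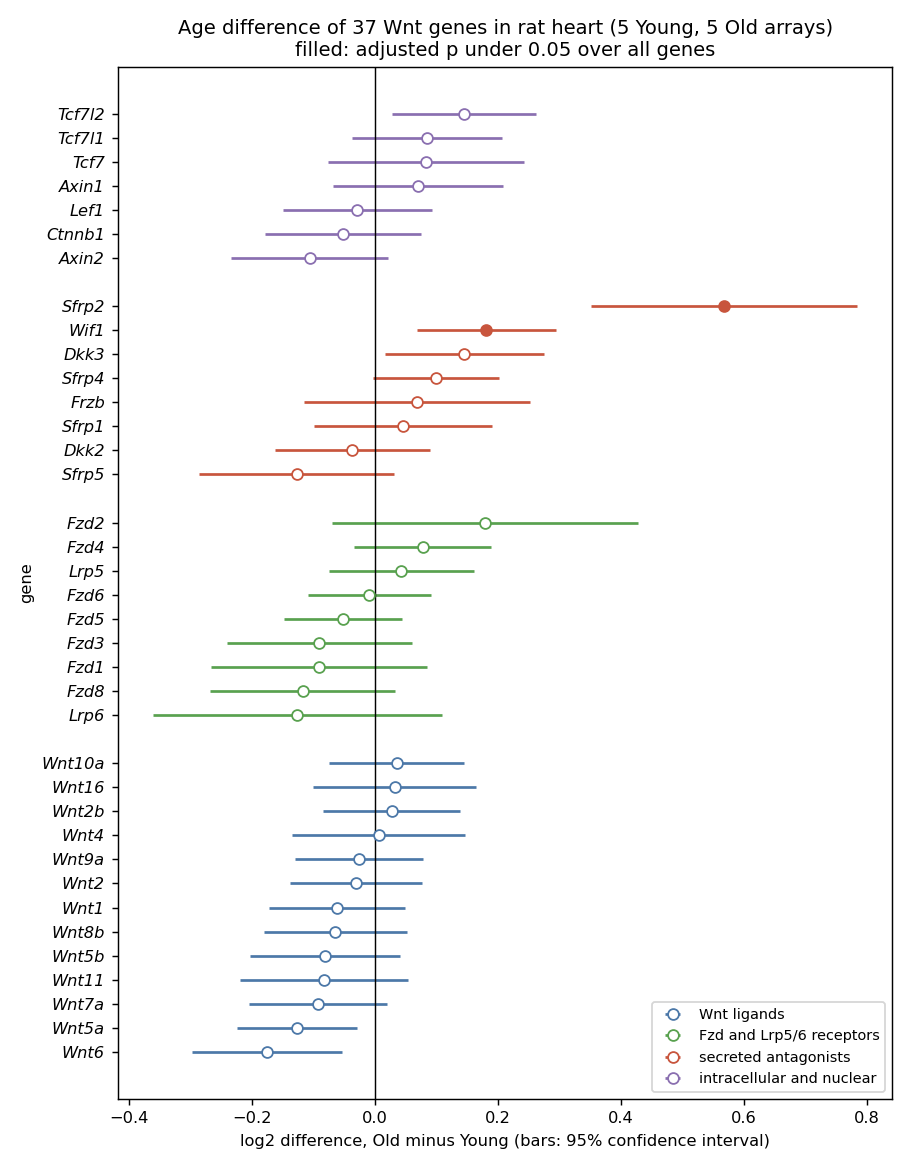
Log2 difference, Old minus Young, of the 37 Wnt genes, grouped by role from ligands at the bottom to intracellular members at the top; points are estimates from 5 arrays per age, bars are 95% confidence intervals and filled points have an adjusted p under 0.05 over all genes. Sfrp2 at 0.57 stands to the right of all others, and the 35 open points lie within 0.2 of 0.

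Among the ligands, which bind Frizzled receptors, 9 of 13 had a lower mean in Old hearts and 0 passed the test (at an unadjusted p under 0.05, 0 were higher and 2 were lower by limma). Their median difference was -0.06. Of all genes, 51.8% had a lower mean. Under the settings tried on all 13 ligands, between 8 and 11 had a lower mean.

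Wnt6, a ligand with a known role in heart development, had the smallest p of the ligands. In the Young arrays with replicate numbers 1, 2, 3, 4 and 6 its values were 0.22, 0.28, 0.17, 0.04 and 0.01, and in the Old arrays numbered 2, 3, 4, 5 and 6 they were -0.04, 0.00, -0.02, -0.07 and -0.03. Every Old array lay below every Young array, by a narrow margin against Young replicates 4 and 6. The highest gene values were in Young replicates 1 and 2, the arrays in which the epicardium and mesothelium markers stood apart. In these 2 arrays 1 Wnt6 probe set read 0.43 and 0.12, and the other 0.01 and 0.43. Next came Young replicate 3, where those markers averaged -0.02. The part of those cells was not tested. The difference was -0.18 ± 0.06 (SE, n = 5 per age), and it missed the threshold (limma adjusted p = 0.0616). It passed without Young replicate 4 (adjusted p = 0.0484) or Young replicate 6 (adjusted p = 0.0366). Both of its probe sets were lower in Old hearts, by -0.23 and -0.12.

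Wnt5a, a ligand best known for signalling that does not use beta-catenin, was close behind. It stood at 0.09, 0.17, 0.08, 0.15 and -0.0045 in the Young arrays and at -0.03, -0.05, -0.04, -0.03 and 0.0045 in the Old arrays, in the same array order. The groups overlapped by a narrow margin, at Young replicate 6 and Old replicate 6. The difference was -0.13 ± 0.04 (SE), with a limma adjusted p of 0.0894, and its 1 probe set was in the dimmest class. Wnt5b, its closest relative, differed by -0.08 and did not pass either.

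Wnt7a, a ligand known from vessel formation in the brain, gave 0.11, 0.19, 0.09, -0.03 and 0.00 in Young and -0.02, 0.06, -0.07, -0.04 and -0.04 in Old arrays. The groups overlapped, with a difference of -0.09 ± 0.05 (SE, limma adjusted p = 0.291). The other ligands lay nearer to 0. Wnt11 (-0.08), Wnt8b (-0.06), Wnt1 (-0.06), Wnt2 (-0.03) and Wnt9a (-0.03) had lower means in Old hearts. Wnt10a (0.04), Wnt16 (0.03), Wnt2b (0.03) and Wnt4 (0.01) had higher means.

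No receptor passed the test: 0 of 9 by limma, and also 0 at an unadjusted p under 0.05. Of the 9, 3 had a higher and 6 a lower mean in Old hearts, and their median difference was -0.05. Fzd2 differed most in size and also varied most between arrays of 1 age. Its values were 0.06, 0.26, -0.13, -0.27 and -0.29 in Young and -0.06, -0.10, 0.13, 0.20 and 0.36 in Old arrays. The 2 groups overlapped over most of their range, and the difference was 0.18 ± 0.11 (SE, limma adjusted p = 0.362). The SD within an age was 0.21 for Fzd2 and 0.20 for Lrp6, against a median of 0.08 over the Wnt genes and 0.10 over all genes.

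Fzd8, another Frizzled, stood at 0.08, -0.04, 0.02, 0.04 and 0.04 in Young and at 0.07, -0.02, -0.12, -0.04 and -0.34 in Old arrays. The low value was that of Old replicate 6, and the difference was -0.12 ± 0.07 (SE, limma adjusted p = 0.320). Fzd4, the Frizzled of endothelial cells that also binds norrin, gave -0.11, -0.10, -0.07, -0.05 and 0.07 in Young and 0.00, -0.07, 0.02, 0.08 and 0.10 in Old arrays. It overlapped as well, with a difference of 0.08 ± 0.05 (SE, limma adjusted p = 0.378). Of its 2 probe sets, 1 gave 0.15 and the other 0.01. The co-receptors differed by -0.13 for Lrp6, with 0.44 in Young replicate 4 and -0.29 in Old replicate 6 as its extremes, and by 0.04 for Lrp5. Fzd1 (-0.09), Fzd3 (-0.09), Fzd5 (-0.05) and Fzd6 (-0.01) were the remaining receptors.

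The secreted antagonists held both genes that were called, and 6 of the 8 had a higher mean in Old hearts. Of all 14217 genes, 6852 had a higher mean, 6.77% were called upward and 11.9% in either direction. With 8 genes, nothing particular to the antagonists is read from these counts. Their median difference was 0.08. With all 8 in the fit, between 5 and 7 had a higher mean under the settings tried. Sfrp2 encodes a secreted Frizzled-related protein that binds Wnt ligands and is also known to promote collagen processing in the injured heart. Its values were -0.28, -0.27, -0.09, -0.17 and -0.20 in the Young arrays and 0.11, 0.39, 0.13, 0.67 and 0.53 in the Old arrays. Every Old array lay above every Young array, with Old replicates 2 and 4 low and 3, 5 and 6 high within their group. The level was 1.48-fold higher in Old hearts (0.57 ± 0.10 SE, 95% confidence interval 0.35 to 0.78, n = 5 per age, limma adjusted p = 0.00492), the gene of rank 257 by p among all genes. The SD was 0.25 in the Old and 0.08 in the Young group. The exact two-sided permutation p was 0.00794, the smallest that 5 arrays against 5 allow.

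Sfrp2 had 2 probe sets and both rose. The first gave -0.15, -0.28, -0.12, -0.12 and -0.37 in Young and 0.12, 0.47, 0.24, 1.02 and 0.79 in Old arrays, a difference of 0.74 ± 0.14 (SE, limma adjusted p = 0.00821 over all probe sets). The second gave -0.42, -0.26, -0.06, -0.22 and -0.03 in Young and 0.09, 0.31, 0.03, 0.32 and 0.26 in Old arrays, a difference of 0.40 ± 0.08 (SE, limma adjusted p = 0.0117). The ages did not overlap in either probe set. Over the gene, the call stood with any single array left out, with adjusted p between 0.00206 and 0.0148. Without Old replicates 3 and 6 together the gene still passed (0.51, adjusted p = 0.0236), while the second probe set did not (0.34, adjusted p = 0.0690).

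The averages of several cell type marker lists differed between the ages, and those of others differed little. The counts below stand against 6.77% of all genes risen and 5.09% fallen. Of 11 fibroblast markers 5 rose and 0 fell, and the list averaged -0.24 to 0.01 in the Young and -0.09 to 0.36 in the Old arrays. Of 6 myofibroblast markers 1 rose, Postn, with averages of -0.48 to -0.17 and -0.06 to 0.47. Postn differed by 2.26 and the others of that list by -0.01 to 0.28. Of 12 macrophage markers 4 rose, with averages of -0.34 to -0.04 in Young and 0.02 to 0.97 in Old arrays. Of 9 cardiomyocyte markers 3 fell, with averages of 0.07 to 0.27 in Young and -0.27 to 0.02 in Old arrays. Myh6 fell most in that list (-1.24), and Csrp3 had a higher mean in Old hearts (0.21). Of 6 atrial markers 2 rose, Nppa and Myl7, with averages of -0.68 to -0.22 and 0.16 to 0.58. The averages of the T and NK lymphocyte (0.50), endothelial (0.17), blood (0.14) and Schwann cell (0.06) lists were higher in Old hearts. Of 11 T and NK markers 8 had a higher mean and 1 rose, Gzma (1.98), while Cd3d, Cd2 and Cd4 had lower means. Of 9 endothelial markers 4 had a higher mean, and Vwf (0.94) and Tek (0.35) rose. The blood average was 1.21 in Old replicate 6, -0.49 to 0.22 in the other Old arrays and -0.33 to 0.36 in the Young arrays. The averages of B cells (-0.12), heart valve (-0.11), epicardium (-0.05), adipocytes (-0.05), ventricular cardiomyocytes (-0.04) and pericytes and smooth muscle (-0.02) were lower. The adipocyte average was lower only through Young replicate 2 (1.00). The other Young arrays were at -0.19 to -0.07 and the Old arrays at -0.01 to 0.11. The epicardium average was 0.28 and 0.22 in Young replicates 1 and 2. It was -0.08 to -0.02 in the other Young arrays and -0.07 to 0.10 in the Old arrays. In Old replicates 2, 3, 4, 5 and 6, in which Sfrp2 was 0.11, 0.39, 0.13, 0.67 and 0.53, the myofibroblast average was -0.06, 0.34, 0.18, 0.47 and 0.35. Among these Old arrays it was low where Sfrp2 was low and high where Sfrp2 was high. This split was not particular to the myofibroblast list. In the same order the T and NK lymphocyte average was 0.09, 0.89, 0.05, 0.23 and 0.59. The pericyte and smooth muscle and the adipocyte averages were also lower in Old replicates 2 and 4 than in the other Old arrays. The cardiomyocyte average split in reverse, at 0.02, -0.27, -0.11, -0.27 and -0.21. In Young replicates 1, 2, 3, 4 and 6 Sfrp2 was -0.28, -0.27, -0.09, -0.17 and -0.20. The myofibroblast average there was -0.18, -0.48, -0.26, -0.17 and -0.24, and it did not follow Sfrp2. The fibroblast average in the Old arrays, in the order above, was 0.03, -0.09, 0.34, 0.36 and 0.27. It was low with Sfrp2 in Old replicate 2 and high with it in 5 and 6, but low in 3 and high in 4. The part of these cell types in the rise of Sfrp2 was not tested. In whole tissue, more cells of a type and more RNA per cell cannot be told apart.

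**Figure D2:**
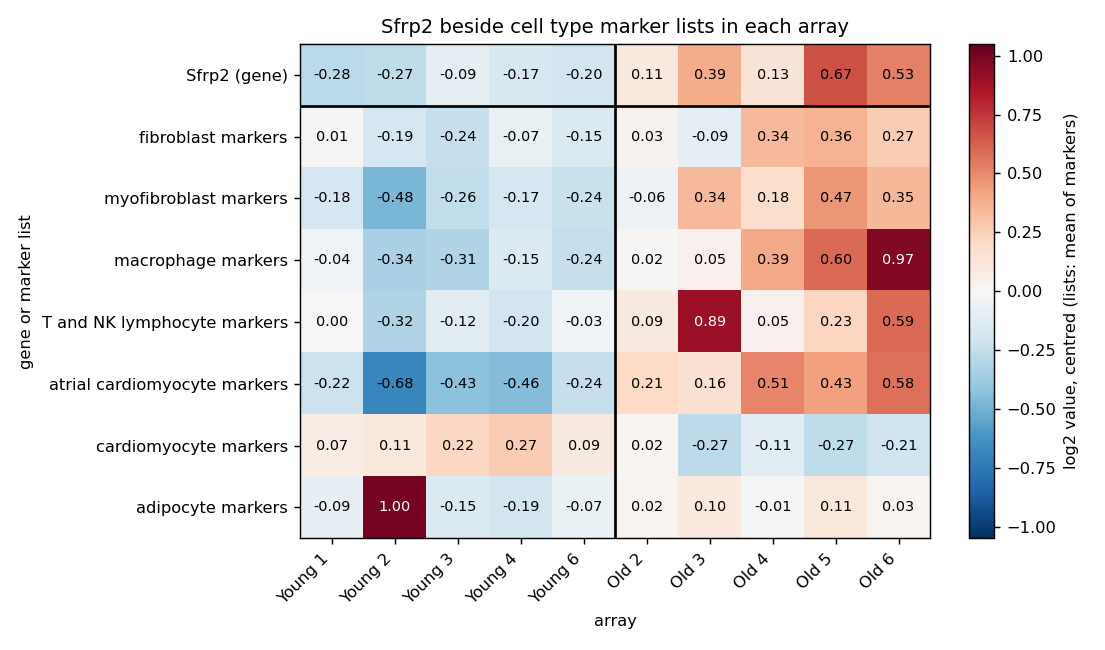
Centred log2 value of Sfrp2 (top row) and the mean of 7 cell type marker lists (rows) in each array (columns, 5 Young left of the line and 5 Old right of it), with colour and printed number giving the same value. Sfrp2 runs from 0.11 to 0.67 in the Old arrays. There the myofibroblast list, at -0.06 to 0.47, is high and low in the same arrays as Sfrp2. In the Old arrays the T and NK lymphocyte and adipocyte lists split in the same way, and the cardiomyocyte list in reverse. In the Young arrays the myofibroblast list does not follow Sfrp2. The fibroblast list goes with Sfrp2 in Old replicates 2, 5 and 6 and not in 3 and 4.

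Wif1, the Wnt inhibitory factor, binds ligands directly. It gave -0.16, -0.06, -0.14, -0.09 and 0.01 in Young and 0.14, 0.14, 0.04, -0.01 and 0.16 in Old arrays. The groups met at Young replicate 6 and Old replicate 5, where the order was reversed. Wif1 was 1.13-fold higher in Old hearts (0.18 ± 0.05 SE, limma adjusted p = 0.0414). This call did not stand when Young replicate 1, 2, 3 or 4 or Old replicate 2, 3, 4 or 6 was left out (adjusted p 0.0512 to 0.104). As a single probe set among all probe sets it did not pass (adjusted p = 0.0626), and that probe set was in the dimmest class.

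Dkk3, a divergent member of the Dickkopf family placed among the antagonists by its name, was measured by 4 probe sets that did not move together. As a gene it gave -0.12, 0.08, -0.12, -0.13 and -0.17 in Young and 0.05, 0.16, 0.05, -0.07 and 0.07 in Old arrays. It overlapped between the ages through Young replicate 2 and Old replicate 5, and the difference of 0.15 ± 0.06 (SE) did not pass (limma adjusted p = 0.139). Its brightest probe set rose, from -0.29, 0.03, -0.44, -0.29 and -0.45 in Young to 0.12, 0.36, 0.20, -0.03 and 0.30 in Old arrays. That was a difference of 0.48 ± 0.10 (SE, limma adjusted p = 0.00919 over all probe sets), which stood with any single array left out but not without Old replicates 3 and 6 together (0.39, adjusted p = 0.0558). The other probe sets of Dkk3 gave 0.15, -0.01 and -0.03, and none of these passed. Atrial and fibroblast markers averaged higher in Old hearts, as given above, and their part in the rise of this probe set was not tested.

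Of the remaining antagonists, Sfrp4, another secreted Frizzled-related protein, differed by 0.10 ± 0.05 (SE, limma adjusted p = 0.202). Frzb, also known as the third Sfrp, differed by 0.07 and Sfrp1 by 0.05, and neither passed. Lower means were found for Sfrp5, an antagonist known from fat tissue, and for Dkk2. Sfrp5 gave -0.03, 0.23, 0.12, 0.03 and -0.05 in Young and -0.11, -0.23, 0.10, -0.12 and 0.03 in Old arrays. The difference of -0.13 ± 0.07 (SE) was within the overlap of the groups (limma adjusted p = 0.304). Its highest value was in Young replicate 2, where adipocyte markers averaged 1.00, and the next in Young replicate 3, where they averaged -0.15. The part of fat cells was not tested. Dkk2 differed by -0.04.

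**Figure D3:**
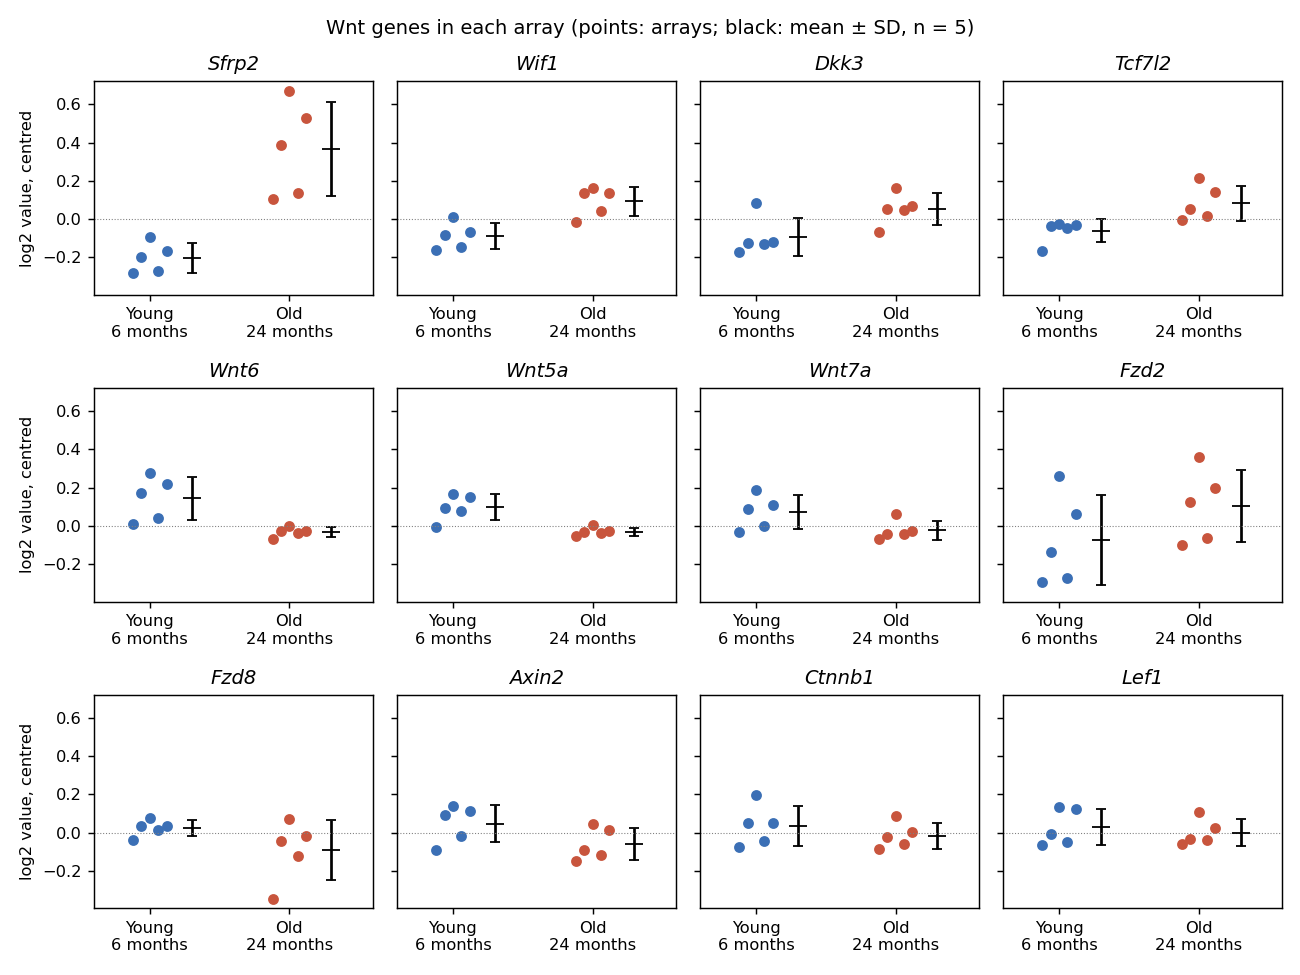
Centred log2 value in each of the 5 Young (6 months, blue) and 5 Old (24 months, red) arrays for 12 Wnt genes, with the mean and SD of each age in black and 1 scale for all panels. The ages separate in Sfrp2, Tcf7l2 and Wnt6, meet at their edges in Wif1 and Wnt5a, and overlap in the others.

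Inside the cell, beta-catenin and its partners showed small differences, none of which passed the test (0 of 7 by limma, 1 at an unadjusted p under 0.05). Ctnnb1, the gene of beta-catenin, gave 0.05, 0.05, -0.04, 0.20 and -0.07 in Young and 0.09, -0.02, 0.00, -0.06 and -0.08 in Old arrays. The groups overlapped, and the difference was -0.05 with a 95% confidence interval of -0.18 to 0.08 (limma adjusted p = 0.635). Of its 4 probe sets 3 were lower in Old hearts, by -0.12, -0.09 and -0.08, and 1 was higher, by 0.09. Only the first of these had an unadjusted p under 0.05 (0.0491, limma adjusted p = 0.226).

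Axin2, the scaffold protein whose gene carries the core motif shown above and is a common readout of beta-catenin activity, gave 0.09, 0.14, -0.09, 0.12 and -0.02 in Young and -0.15, 0.04, -0.09, 0.02 and -0.12 in Old arrays. It was lower in Old hearts by -0.11 ± 0.06 (SE), which did not pass (limma adjusted p = 0.286, 95% confidence interval -0.23 to 0.02). Axin1, which is made constitutively, differed by 0.07. Lef1 gave 0.14, -0.06, -0.01, -0.05 and 0.12 in Young and -0.06, 0.11, -0.03, -0.04 and 0.02 in Old arrays, a difference of -0.03 ± 0.06 (SE, limma adjusted p = 0.796). Tcf7 gave 0.17, -0.14, 0.00, -0.15 and 0.03 in Young and 0.00, -0.04, 0.11, 0.25 and -0.01 in Old arrays, a difference of 0.08 ± 0.07 (SE, limma adjusted p = 0.522). The Old values of Lef1 lay within its Young range. Tcf7 overlapped in part, with Old replicate 5 above every Young array and Young replicates 2 and 4 below every Old array.

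Tcf7l2, a TCF factor best known for its link to diabetes, was the member of this group with the smallest p. Its values were -0.029, -0.166, -0.023, -0.046 and -0.035 in Young and 0.213, 0.144, -0.004, 0.052 and 0.017 in Old arrays. The ages did not overlap, by a margin of hundredths at Young replicate 3 and Old replicate 4. The difference of 0.14 ± 0.05 (SE) did not pass (limma adjusted p = 0.105). The 5 probe sets were unlike: the brightest rose by 0.46 ± 0.12 (SE, limma adjusted p = 0.0320 over all probe sets), and the others gave 0.13, 0.09, 0.04 and 0.00. The bright probe set read 0.04, -0.64, -0.10, -0.30 and -0.15 in Young and 0.42, 0.41, -0.04, 0.24 and 0.14 in Old arrays, with its lowest value in Young replicate 2. Its call was lost without Young replicate 2, 3, 4 or 6 or Old replicate 2, 3, 5 or 6 (adjusted p 0.0507 to 0.0734). Tcf7l1, known mainly as a repressor, gave -0.02, 0.09, -0.09, -0.20 and -0.02 in Young and 0.03, 0.09, -0.02, 0.07 and 0.01 in Old arrays. It overlapped between the ages and differed by 0.08 ± 0.06 (SE, limma adjusted p = 0.382). Its 2 probe sets went opposite ways, 0.25 (adjusted p = 0.0687) and -0.08 (adjusted p = 0.564).

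Over all Wnt genes, 4 of 61 probe sets passed the test over all probe sets, all upward, against 8.03% of all probe sets (4.42% upward, 3.6% downward). They were both of Sfrp2 and the brightest of Dkk3 and of Tcf7l2. For 16 of the 37 genes more than 1 probe set was measured. The ages did not overlap in 2 of the 61 probe sets, both of Sfrp2 with Old higher, against 7.32% of all probe sets (3.67% with Old higher, 3.65% with Old lower). Wnt6 and Tcf7l2 were thus free of overlap as means of their probe sets, but in no single probe set.

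**Figure D4:**
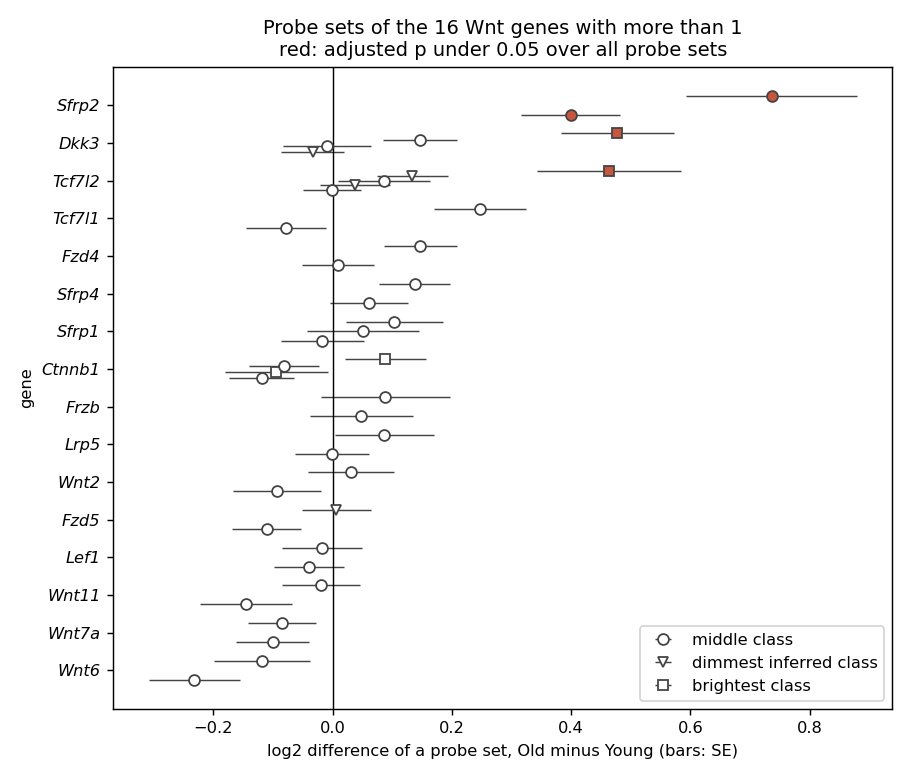
Log2 difference, Old minus Young, of each probe set of the 16 Wnt genes with more than 1, with SE bars; the marker shape gives the inferred brightness class and red marks an adjusted p under 0.05 over all probe sets. Both Sfrp2 probe sets are red at 0.74 and 0.40, whereas Dkk3 and Tcf7l2 each have 1 red square at 0.48 and 0.46 and other probe sets near 0.

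Other genes of the pathway were taken from 7 lists by role, in which 161 of 184 listed genes were measured. Of these, 10 rose and 6 fell (9.94%), against 11.9% of all genes. Among genes that help ligands act, 1 of 15 rose and 1 fell. Sulf2, an enzyme that trims heparan sulfate around cells, rose by 0.45 ± 0.08 (SE, limma adjusted p = 0.00508), and Lgr6, a receptor of R-spondins, was lower by -0.42 ± 0.09 (SE, adjusted p = 0.0134). Of 7 other receptors, 1 rose: Reck (0.45 ± 0.10 SE, adjusted p = 0.0119), a membrane-anchored protease inhibitor that also serves as a cofactor for Wnt7 ligands.

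Negative regulators had 1 of 22 genes called, Nlk (-0.23, adjusted p = 0.0231), a kinase that acts on TCF/LEF factors. In the destruction complex 1 of 22 fell, Gsk3b (-0.26 ± 0.06 SE, limma adjusted p = 0.0130), the kinase that marks beta-catenin. Among beta-catenin's partners 1 of 19 fell, Jup (-0.24, adjusted p = 0.0161), which encodes plakoglobin of the cell junctions. In the planar polarity and calcium branch 2 of 37 rose, the small GTPase gene Rac1 (0.26, limma adjusted p = 0.0317) and the protein kinase C gene Prkcb (0.34, adjusted p = 0.0446). In the order given, the shares called were 4.55%, 4.55%, 5.26% and 5.41%, each below the 11.9% of all genes.

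Textbook target genes had 6 of 43 risen and 2 fallen (18.6%), against 6.77% and 5.09% of all genes (11.9% together). Their median difference was 0.05, against -0.01 over all genes. Those that rose were Ccn2 (2.09), Ccn5 (1.10), the fibronectin gene Fn1 (0.91), the cyclin gene Ccnd1 (0.50), the Notch ligand gene Jag1 (0.45) and the matrix protease gene Mmp2 (0.21). The vessel growth factor gene Vegfa (-0.48) and the connexin gene Gja1 (-0.17) fell. The limma adjusted p of these 8 genes ran from 0.000882 for Ccn2 to 0.0486 for Ccnd1. These genes answer to many pathways besides Wnt. Fibroblast and macrophage markers averaged higher in Old hearts, as given above, and their part in these changes was not tested.

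Of the 16 pathway genes called, 9 stood with any single array left out: Ccn2, Fn1, Jag1, Reck, Sulf2, Vegfa, Gsk3b, Jup and Lgr6. The last 4 of these did not pass without Old replicates 3 and 6 together (adjusted p 0.0548, 0.0511, 0.0585 and 0.0753). The call of Nlk was lost without Old replicate 5 or 6, and that of Mmp2 without Young replicate 1, 2 or 3 or Old replicate 4, 5 or 6. Rac1 was lost without Young replicate 2, 3, 4 or 6 or Old replicate 3, 5 or 6, and Prkcb without these or Old replicate 4. Ccn5 and Gja1 were lost without any 1 Young array or Old replicate 4, 5 or 6, and Ccnd1 without these or Old replicate 3. The adjusted p of these 7 genes then lay between 0.0511 and 0.111.

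**Figure D5:**
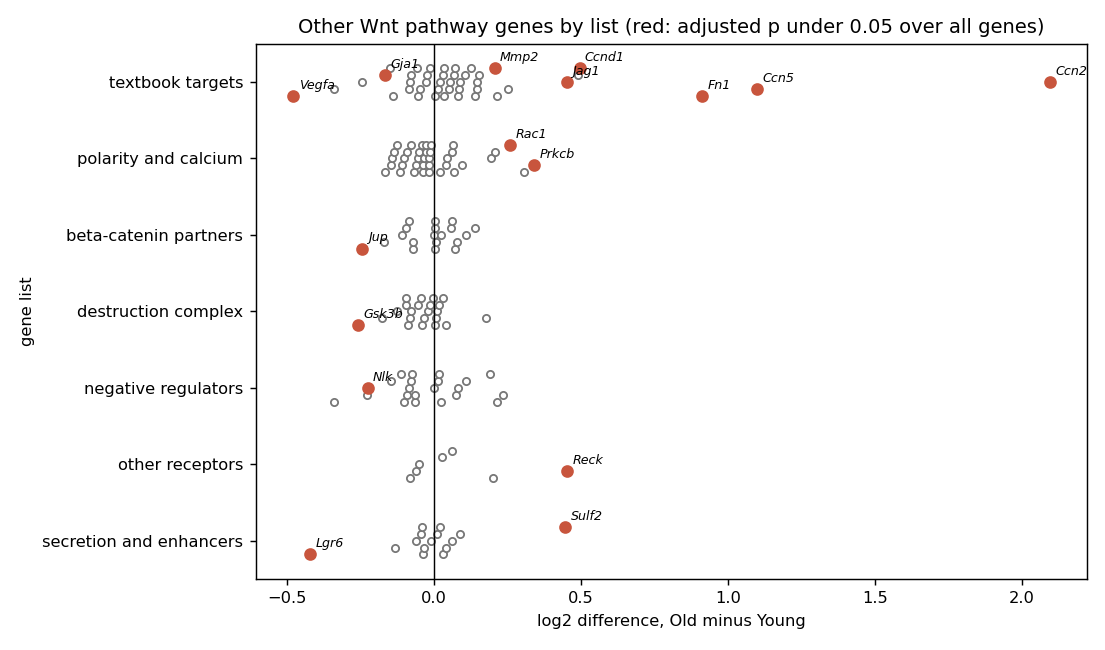
Log2 difference, Old minus Young, of each measured gene of 7 Wnt pathway lists (rows; the vertical offset within a row only separates points), with genes of adjusted p under 0.05 over all genes in red and named. Most points lie near 0 in every list, and Ccn2 at 2.09 is the farthest.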

How the data were processed

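Heart RNA was measured on 10 Affymetrix rat genome arrays after 2 rounds of cDNA synthesis, per the labels' protocols. The authors' deposited table holds 1 signed value per probe set and array, used here as log2; the base was inferred from the values. For the software, background correction and normalization, nothing is stated in the labels. Medians over the arrays were 0 for all probe sets (tolerance 1e-06), and array medians lay between -0.00972 and 0.00930. The highest correlation between 2 arrays was 0.570, so no 2 arrays were merged.

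Gene names came from the platform annotation (20826 with 1 symbol, 436 with several, 9780 with none listed), with symbols updated by gene identifier through RefSeq (20758 matched, assembly GRCr8). Genes are means of their probe sets. Old and Young were compared with limma 3.58.1 in R 4.3.3 (lmFit, eBayes, 10 arrays, no covariate, 4.36 prior degrees of freedom), Benjamini-Hochberg adjusted over all genes or all probe sets. The script was tested on simulated data. Values per array are given for each called or non-overlapping gene, the 3 of smallest p in each role, the 3 largest differences each way, and Axin2, Ctnnb1, Lef1 and Tcf7. Of each pathway list, called genes are named. The Wnt genes and all lists were chosen with earlier results of these data known. Python 3.11.15 with pandas 2.3.3 and matplotlib 3.10.9 made tables and plots. Other settings covered scaling, array weights, variance model, pairing, probe set choice, dim probe sets, arrays left out and an exact permutation test. For arrays, their number limits the precision.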

Additional observations from a re-analysis of the deposited data

Results flagged for a closer look

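Among the 74 groups of 5 values (37 Wnt genes at 2 ages), 4 held an array far from the other 4 of its group by Dixon's test, in which chance gives about 1 in 20 groups. All 4 were in Young arrays. Dkk3 stood at 0.0819 in Young replicate 2, against -0.17 to -0.12 in the other Young arrays, and without that array its difference was 0.19 (limma adjusted p = 0.0533). Tcf7l2 stood at -0.17 in the same array, against -0.05 to -0.02, and without it the difference was 0.12 (limma adjusted p = 0.226). That array also had adipocyte markers of 1.00, whose part in either value was not tested. Wnt1 stood at 0.16 in Young replicate 6, against -0.01 to 0.04 in the others. Wnt2b stood at -0.21 in Young replicate 4, against -0.01 to 0.02.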

How the results depend on the processing

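Of the 37 Wnt genes, 23 kept their direction and their side of the threshold under all alternatives run for them. The number called was 2; it was 1 to 3 with single arrays left out, 1 without Old replicates 3 and 6, 1 without the dimmest class (30 genes tested) and 3 by the probe set of largest spread (Sfrp2, Dkk3 and Tcf7l2). Sfrp2 was called in all of these, and missed the threshold only by the exact permutation test (adjusted p = 0.0801). That test called 0 of 37 Wnt genes, 0 of 61 Wnt probe sets, 0 of 161 pathway genes and 0 of 14217 genes. In the same order, 7, 13, 36 and 3502 had an unadjusted p under 0.05. The smallest p that 5 arrays against 5 allow, 0.00794, limits what that test can call after adjustment. Wif1 also missed the threshold with array weights (0.0641), and Wnt6 then passed (0.0416). The 4 Wnt probe sets called became 3 to 5 with single arrays left out and 1 without Old replicates 3 and 6. The 16 pathway genes became 9 to 21, 25 with array weights and 7 without Old replicates 3 and 6. The 1686 genes called became 988 to 1994 and 1012.

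Replicate numbers 2, 3, 4 and 6 occur at both ages. Deviations of same-numbered arrays correlated at 0.0349 to 0.145, and 1 of 4 Old arrays correlated best with its own number, so the numbers were not taken to pair samples. With the replicate number as a block on those 8 arrays, 1 Wnt gene (Sfrp2), 3 Wnt probe sets, 11 pathway genes and 1069 genes were called. Without the block on the same 8 arrays, an alternative chosen after seeing the data, the counts were 1, 2, 8 and 929.

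Of the Wnt genes, 9 near 0 changed sign, none of them called. In those 8 arrays, with the replicate block or without it, Wnt16 was -0.0018, Lef1 0.0085 and Fzd6 0.021. Without Old replicates 3 and 6, Lrp5 was -0.015, Sfrp1 -0.027 and Wnt4 -0.010, and with array weights Wnt4 was -0.028. With single arrays left out, Sfrp1 ranged from -0.0043 to 0.071, Dkk2 from -0.059 to 0.010, Wnt2b from -0.015 to 0.041, Wnt9a from -0.045 to 0.0012, Fzd6 from -0.035 to 0.0099 and Wnt4 from -0.026 to 0.046.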
